A study of Mus musculus with 6 samples.

Results

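The enzymes described are 10 genes that modify collagen lysines and prolines, namely the lysyl oxidases *Lox*, *Loxl1*, *Loxl2*, *Loxl3* and *Loxl4*, the lysyl hydroxylases *Plod1*, *Plod2* and *Plod3*, and the prolyl 4-hydroxylase subunits *P4ha1* and *P4ha2*. They were taken by gene symbol from the 54525 gene rows of the count data, and all 10 were listed and passed the filter on low counts. RNA-seq was performed on C2C12 cells, an established mouse myoblast line that stops dividing and fuses into multinucleated myotubes when serum is withdrawn. The groups were 3 cultures of wild-type myoblasts (day 0, D0) and 3 cultures of wild-type cells after 5 days of differentiation in medium with horse serum (D5), with the treatment given as none in the labels of both. All cultures were of this 1 line, and no animal tissue entered the data described. Nothing in the labels says that the cultures of a group came from separate experiments, so the p-values measure the spread between these cultures only.

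Collagen chains are modified in the endoplasmic reticulum before they leave the cell. Prolyl 4-hydroxylases, tetramers of P4HA alpha subunits with the shared beta subunit P4HB, hydroxylate prolines that keep the triple helix stable at body temperature, and PLOD enzymes hydroxylate lysines that later take part in crosslinks or carry sugars. Outside the cell, the copper enzymes of the LOX family oxidize lysines and hydroxylysines of collagen and elastin to aldehydes, from which the covalent crosslinks form. In muscle the collagens that these enzymes modify are part of the connective tissue around the fibers. Several of the genes, among them *P4ha1*, *P4ha2*, *Plod2* and *Lox*, are known from other cells as targets of hypoxia-inducible factor (HIF).

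Between 36555048 and 40895840 counts fell on genes in the D0 libraries and between 25449759 and 25811300 in those of D5. Levels are given as CPM, counts per 1000000 counts after scaling with edgeR's TMM factors. The 2 groups were compared with the quasi-likelihood test of edgeR, with p-values adjusted by Benjamini-Hochberg over 16290 genes and a threshold of 0.05. The labels were checked with marker lists, and 4 of 4 myoblast markers fell, 8 of 8 myotube markers rose, and 6 of 6 proliferation markers fell, whose summed level went from between 1822 and 1833 CPM to between 102 and 111 CPM. Of 6 fibroblast markers, 4 (*Pdgfra*, *Dpt*, *Pi16* and *Lum*) rose, *Ly6a* did not pass the test and *Tcf21* had 0 counts in every library. The summed level of these 6 was from 34.2 to 37.6 CPM at D0 and from 85.4 to 96.3 CPM at D5. At D0 most of it was *Ly6a*, with means of 34.9 CPM at D0 and 33.3 CPM at D5. Mean CPM went from 1.04 to 23.9 for *Pdgfra*, 0.0822 to 20.1 for *Dpt*, 0.174 to 2.94 for *Pi16* and 0 to 9.96 for *Lum*. The part of these changes in the results below was not tested. The 4 adipocyte markers had at most 3 counts in any library. Of 4 osteoblast markers 1 (*Dmp1*) rose, and of 3 chondrocyte markers 1 (*Sox9*, from 51.7 to 69.4 CPM) rose. Of 4 endothelial markers 2 fell (*Kdr* and *Tek*), and of 4 immune markers 1 fell (*Cd68*). The other genes of these lists had too few counts to be tested. The osteoblast, endothelial and immune lists summed to at most 1.01, 3.59 and 3.31 CPM in any library. In bulk RNA a change in the number of cells of a type and a change in RNA per cell cannot be told apart.

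With TMM, 5 of the 10 enzymes rose at D5 (*Loxl3*, *Loxl4* and, with a direction or call that was lost without scaling and with spike-in scaling, *Lox*, *Plod1* and *P4ha1*) and 5 fell (*Loxl1*, *Loxl2*, *Plod2*, *Plod3* and *P4ha2*). With TMM, members moved in both directions within each of the 3 families. Across all genes tested, 82.9% passed the test, 42.2% higher and 40.8% lower, so the members' counts lie near this background. In every member the groups did not overlap, beside 83.3% of all genes. The median log2 fold change of the 10 was -0.02, and that of all genes was 0.0022. What separated the members was the size of the change, from a log2 fold change of -4.55 for *Loxl2* to 2.41 for *Loxl3*. A change as large as that of *Loxl2* was found in 5.87% of genes tested, and one as large as that of *Loxl3* or *Loxl4* in 13.6% and 15.0%. For the other 7 the share lay between 26.8% (*P4ha2*) and 66.8% (*Plod1*).

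**Figure D1:**
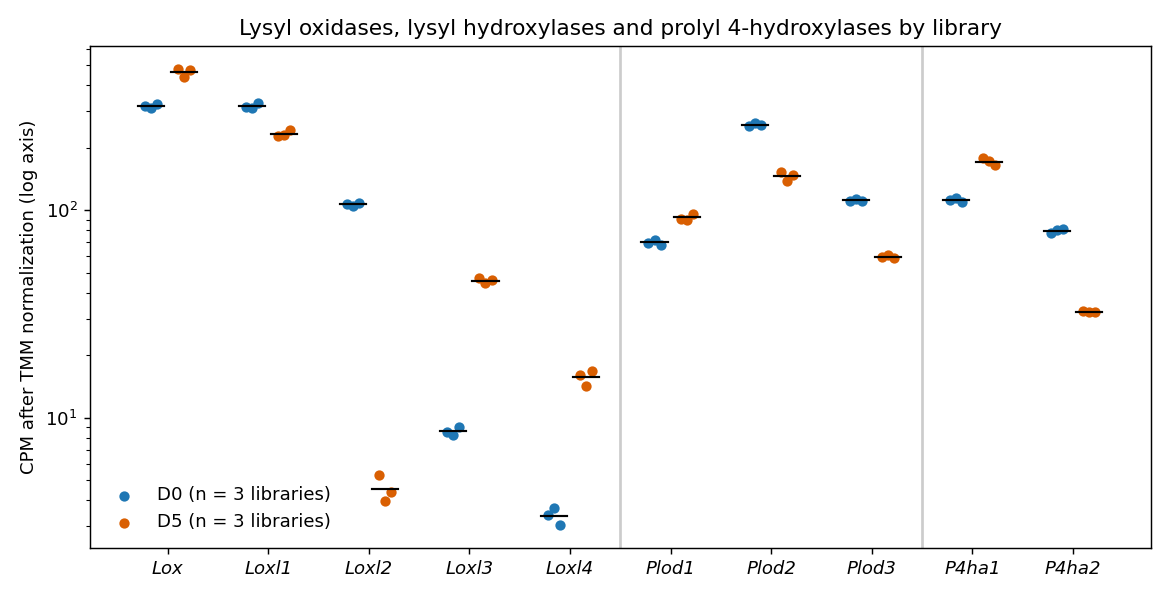
Level of each of the 10 enzymes in CPM after TMM normalization on a log axis, with 1 point for each of the 3 D0 (blue) and 3 D5 (orange) libraries and a black bar at the group mean. In no enzyme do the groups overlap, beside 83.3% of all genes tested without overlap. The widest gap is that of *Loxl2*, with group means of 107 and 4.56 CPM.

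The direction of the smaller rises depended on how libraries were scaled. The D5 libraries were shallower, and without scaling the median log2 fold change of all genes was -0.68. Values without scaling, here and below, carry this difference in depth and do not compare expression. The median was -0.58 when libraries were scaled to the ERCC spike-ins, synthetic RNAs listed beside the genes. The calls then turned towards D0, with 76.6% of calls lower without scaling and 67.4% with the spike-ins, against 49.2% with TMM. *Lox* had a log2 fold change of -0.13 without scaling and -0.04 with spike-ins, *Plod1* of -0.28 and -0.18, and *P4ha1* of -0.07 and 0.06. The spike-ins took between 0.720% and 2.09% of counts and differed most among the D5 replicates, and the amount added per sample is not stated. Relative to the median of all genes in the same setting the members kept nearly the same values, for *Lox* 0.54 without scaling and 0.54 with spike-ins. *Loxl3* and *Loxl4* rose, and *Loxl2*, *Plod2*, *Plod3* and *P4ha2* fell, past the threshold under all of these scalings.

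**Figure D2:**
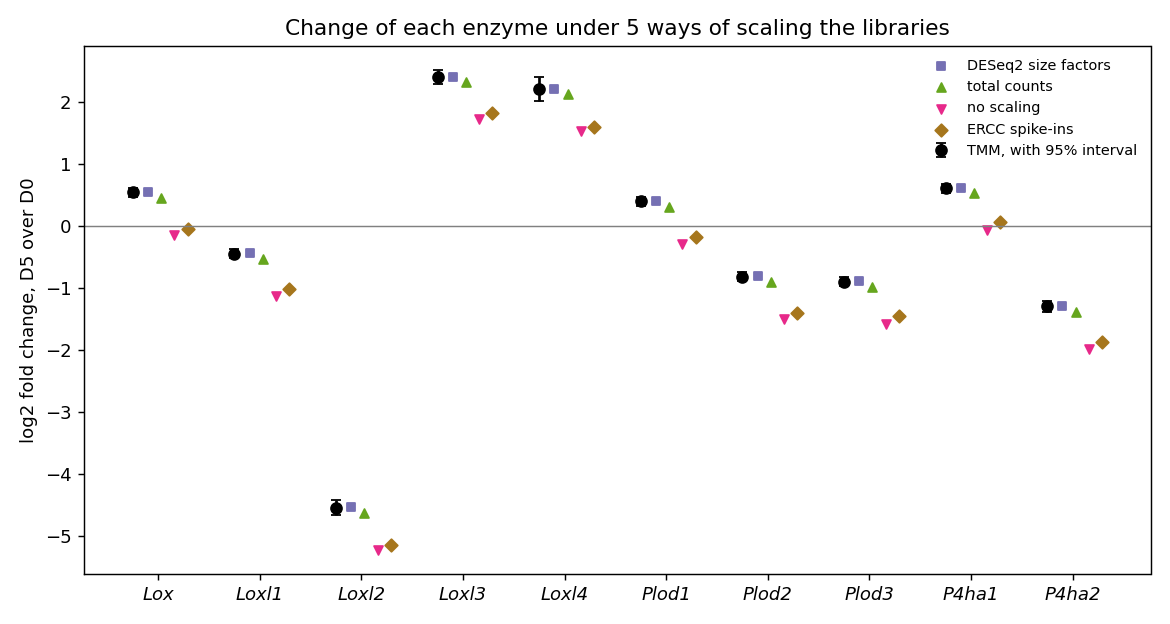
Log2 fold change (D5 over D0) of each enzyme with TMM (black, with its 95% interval) and with 4 other scalings of the libraries. *Lox*, *Plod1* and *P4ha1* lie above 0 with TMM, DESeq2 size factors and total counts and near or below 0 without scaling and with ERCC spike-ins, while the order of the genes stays alike.

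*Lox* (ENSMUSG00000024529.13, chromosome 18 of GRCm38 from 52516067 to 52529867, minus strand), the founding lysyl oxidase, had 318, 312 and 326 CPM in D0 replicates 1, 2 and 3 and 481, 439 and 477 CPM in D5 replicates 1, 2 and 3. Every D5 library was above every D0 library. With TMM this gave a log2 fold change of 0.55 (standard error, SE, 0.035, edgeR adjusted p = 5.9e-15). The mean went from 319 ± 6.84 to 465 ± 23.3 CPM (SD, n = 3 each). With spike-ins the log2 fold change was -0.04 and not past the threshold. Without scaling, with the difference in depth left in, it was -0.13 (edgeR adjusted p = 0.0455).

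*Loxl1* (ENSMUSG00000032334.10, chromosome 9 from 58287738 to 58313186, minus strand), the family member best known for its action on elastin, had 314, 312 and 329 CPM at D0 and 229, 231 and 243 CPM at D5. All 3 D5 libraries were lower. The mean decreased from 318 ± 9.48 to 234 ± 7.73 CPM (SD, n = 3 each), or by -0.44 on the log2 scale (SE 0.034, edgeR adjusted p = 4.2e-13). With the spike-ins it was -1.02 and did not pass the test (adjusted p = 0.113). Thus *Lox* and *Loxl1*, which had nearly equal counts at D0, stood apart at D5.

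*Loxl2* (ENSMUSG00000034205.16, chromosome 14 from 69609068 to 69695834, plus strand), which crosslinks collagen IV of basement membranes, was the member that fell furthest. At D0 its counts were 4024, 4413 and 4357, and at D5 they were only 133, 98 and 110. In CPM these were 107, 105 and 108 at D0 and 5.29, 3.97 and 4.42 at D5, so D5 replicate 1 was the highest of its group and still far under every D0 library. The fall was 23.4-fold, or -4.55 on the log2 scale (SE 0.062, 95% interval from -4.67 to -4.42, edgeR adjusted p = 2.6e-32). Of its 50-base stretches 42.9% also occur in the pseudogene *Gm21451* on the same chromosome (from 69390854 to 69480287), which was listed with 2, 5 and 2 counts at D0 and 0 in each D5 library. How reads with several matches were handled is not stated, so the level of *Loxl2* per length is uncertain.

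*Loxl3* (ENSMUSG00000000693.10, chromosome 6 from 83034173 to 83052562, plus strand), a lysyl oxidase that has been linked to the anchoring of muscle fibers at their tendon ends, rose most. It had 321, 349 and 363 counts at D0 and 1189, 1096 and 1143 counts at D5, or 8.56, 8.29 and 9.01 CPM against 47.3, 44.4 and 45.9 CPM. The lowest D5 library was thus well above the highest D0 library. On the log2 scale the rise was 2.41 (SE 0.056, 95% interval from 2.30 to 2.53, edgeR adjusted p = 2.0e-26). Of its exonic length 11.6% overlaps *Htra2* on the opposite strand, which had 1356, 1553 and 1387 counts at D0 and 1067, 1078 and 1151 at D5. The strand setting of the counting is not stated.

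*Loxl4* (ENSMUSG00000025185.14, chromosome 19 from 42593982 to 42612813, minus strand), another member of the family, was the least abundant lysyl oxidase in myoblasts, with 3.41, 3.68 and 3.05 CPM at D0 and 16.2, 14.2 and 16.9 CPM at D5. These rest on 123 to 155 counts at D0 and 350 to 420 at D5, and the groups did not overlap. The rise was 4.64-fold (log2 fold change 2.22, SE 0.093, edgeR adjusted p = 1.4e-19).

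*Plod1* (ENSMUSG00000019055.15, chromosome 4 from 147909753 to 147936767, minus strand), which hydroxylates lysines of the collagen helix, had 69.7, 72.3 and 68.0 CPM at D0 and 91.2, 89.7 and 96.2 CPM at D5. All D5 libraries were higher. Its log2 fold change of 0.40 (SE 0.038, edgeR adjusted p = 7.8e-11) was the smallest of the 10. With spike-ins it was -0.18 and not past the threshold. Without scaling, with the difference in depth left in, it was -0.28 (edgeR adjusted p = 6.1e-05).

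*Plod2* (ENSMUSG00000032374.14, chromosome 9 from 92542223 to 92608428, plus strand), the enzyme for lysines of the collagen telopeptides, had 255, 262 and 257 CPM at D0 and 153, 139 and 148 CPM at D5. *Plod3* (ENSMUSG00000004846.10, chromosome 5 from 136987019 to 136996648, plus strand), which also transfers sugars onto hydroxylysine, had 111, 113 and 111 CPM at D0 and 59.7, 61.1 and 58.8 CPM at D5. In both, every D5 library was lower than every D0 library. The log2 fold change was -0.82 for *Plod2* (SE 0.035, edgeR adjusted p = 2.8e-19) and -0.90 for *Plod3* (SE 0.036, edgeR adjusted p = 5.0e-20). Of the exonic length of *Plod3* 11.7% overlaps *Znhit1* on the opposite strand, with 957, 1006 and 963 counts at D0 and 666, 593 and 653 at D5.

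*P4ha1* (ENSMUSG00000019916.14, chromosome 10 from 59323296 to 59373304, plus strand), the alpha subunit of the main prolyl 4-hydroxylase of most cells, had 112, 115 and 109 CPM at D0 and 178, 173 and 164 CPM at D5. *P4ha2* (ENSMUSG00000018906.14, chromosome 11 from 54100095 to 54131665, plus strand), the alpha subunit of the second isoenzyme, had 77.7, 80.7 and 81.2 CPM at D0 and 32.7, 32.4 and 32.4 CPM at D5. The D5 libraries were all above the D0 libraries for *P4ha1* and all below for *P4ha2*. The log2 fold change was 0.62 for *P4ha1* (SE 0.035, edgeR adjusted p = 3.7e-16), which was -0.07 without scaling and 0.06 with spike-ins, neither past the threshold. For *P4ha2* it was -1.30 (SE 0.042, edgeR adjusted p = 1.1e-22), a 2.46-fold fall.

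The third alpha subunit, *P4ha3* (ENSMUSG00000051048.17, chromosome 7 from 100285520 to 100319699, plus strand), is not among the 10 and was listed with the partner genes. It had 67, 63 and 67 counts at D0 and 323, 284 and 327 counts at D5. All D5 libraries were higher, and the log2 fold change was 2.92 (SE 0.11, edgeR adjusted p = 6.8e-21).

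Since the alpha subunits differed in direction with TMM and are known in part as HIF targets, the 250 bases before their RefSeq start sites are shown, from the RefSeq promoter table of GRCm38.p6, on the strand of the gene. Capitals mark ACGTG and GCGTG on either strand, the letters of the HIF core motif. The positions are chr10:59323046-59323295 for *P4ha1*, chr11:54100674-54100923 for *P4ha2* and chr7:100285270-100285519 for *P4ha3*. The window of *P4ha2* lies inside the longer span annotated for the gene, outside its annotated exons.
P4ha1: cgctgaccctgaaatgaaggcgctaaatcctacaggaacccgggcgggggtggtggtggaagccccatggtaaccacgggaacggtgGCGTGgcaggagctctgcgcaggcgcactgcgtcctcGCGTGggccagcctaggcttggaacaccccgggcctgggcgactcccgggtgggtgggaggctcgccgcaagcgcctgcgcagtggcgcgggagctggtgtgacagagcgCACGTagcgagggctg
P4ha2: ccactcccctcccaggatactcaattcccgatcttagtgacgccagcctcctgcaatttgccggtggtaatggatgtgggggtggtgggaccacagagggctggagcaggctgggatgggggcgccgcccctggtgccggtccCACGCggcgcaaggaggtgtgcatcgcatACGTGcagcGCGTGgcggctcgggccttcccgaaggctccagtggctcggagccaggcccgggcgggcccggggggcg
P4ha3: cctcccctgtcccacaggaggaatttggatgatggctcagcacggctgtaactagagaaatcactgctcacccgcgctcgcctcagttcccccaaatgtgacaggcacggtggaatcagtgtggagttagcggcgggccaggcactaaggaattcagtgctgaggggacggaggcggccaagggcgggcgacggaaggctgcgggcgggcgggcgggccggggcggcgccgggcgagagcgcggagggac
*P4ha1* and *P4ha2* each hold 1 ACGTG and 2 GCGTG, and *P4ha3* holds neither. Among 32851 promoter windows of the same length 38.6% hold at least 1 of these motifs, a background not matched for base composition. Of the 10 members 5 were in the table (*Loxl4*, *Plod1*, *Plod3*, *P4ha1* and *P4ha2*) and all 5 hold at least 1, while *Lox*, *Loxl1*, *Loxl2*, *Loxl3* and *Plod2* had no entry. The window of *Plod3* overlaps exons of *Znhit1*, and its longest stretch outside annotated exons, 42 bases, holds none of the motifs. A letter match is a description and not a bound site, and a link between these motifs and the changes was not tested.

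To compare levels between members, counts were divided by exonic length and given as TPM, transcripts per 1000000 transcripts. In myoblasts *Loxl1* was the highest member at 334 ± 14.0 TPM, followed by *Lox* at 231 ± 7.38 TPM and *Plod2* at 166 ± 4.22 TPM (SD, n = 3 each). At D5 *Lox* came first at 302 ± 20.1 TPM, then *Loxl1* at 220 ± 6.79 TPM and *P4ha1* at 130 ± 7.15 TPM (SD, n = 3 each). The lowest member at D0 was *Loxl4* at 2.78 ± 0.247 TPM, and at D5 it was *Loxl2* at 2.62 ± 0.440 TPM (SD, n = 3 each), which had been at 68.4 ± 1.57 TPM in myoblasts. The full order at D0 was *Loxl1*, *Lox*, *Plod2*, *P4ha1*, *Plod3*, *Loxl2*, *P4ha2*, *Plod1*, *Loxl3* and *Loxl4*, and no neighbours overlapped. The place of *Loxl2* in it is uncertain, because of the sequence shared with *Gm21451*. At D5 it was *Lox*, *Loxl1*, *P4ha1*, *Plod2*, *Plod1*, *Plod3*, *Loxl3*, *P4ha2*, *Loxl4* and *Loxl2*, in which the libraries of *Plod1* (42.4 ± 1.72 TPM) and *Plod3* (41.1 ± 0.915 TPM) overlapped.

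The share of a member in its family is taken within a library and does not depend on scaling between libraries. Among the lysyl oxidases, counted per exonic length, *Lox* went from 35.9% ± 0.148 to 53.2% ± 1.06 and *Loxl1* from 52.0% ± 0.317 to 38.8% ± 1.24 (SD, n = 3 each). Per length the leading oxidase thus changed from *Loxl1* to *Lox*. By counts *Lox* (42.2% ± 0.118) and *Loxl1* (42.1% ± 0.313) were level at D0 (SD, n = 3 each). At D5 *Lox* led by counts, at 60.8% ± 0.950 against 30.6% ± 1.11 (SD, n = 3 each). Per length, *Loxl2* went from 10.6% ± 0.144 to 0.461% ± 0.0597, *Loxl3* from 1.01% ± 0.0178 to 5.45% ± 0.134, and *Loxl4* from 0.433% ± 0.0507 to 2.04% ± 0.108 (SD, n = 3 each). The order of *Loxl2* and the pair *Loxl3* and *Loxl4* was thereby reversed. The level of *Loxl2* is uncertain, as given above, and to that extent so are the shares of the lysyl oxidases. Among the lysyl hydroxylases *Plod2* stayed the largest, at 57.7% ± 0.150 and 50.2% ± 1.27, and *Plod1* went from 12.5% ± 0.245 to 25.3% ± 0.759 (SD, n = 3 each). Among the alpha subunits *P4ha1* went from 67.1% ± 0.758 to 81.9% ± 0.836, *P4ha2* from 31.6% ± 0.758 to 10.2% ± 0.278, and *P4ha3* from 1.30% ± 0.132 to 7.83% ± 0.634 (SD, n = 3 each). In each of these shares the groups did not overlap, and the two-sided exact permutation test gave p = 0.1, the smallest that 3 libraries against 3 allow. Of all genes tested 83.3% did not overlap in CPM, and the shares of a family are tied to one another.

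**Figure D3:**
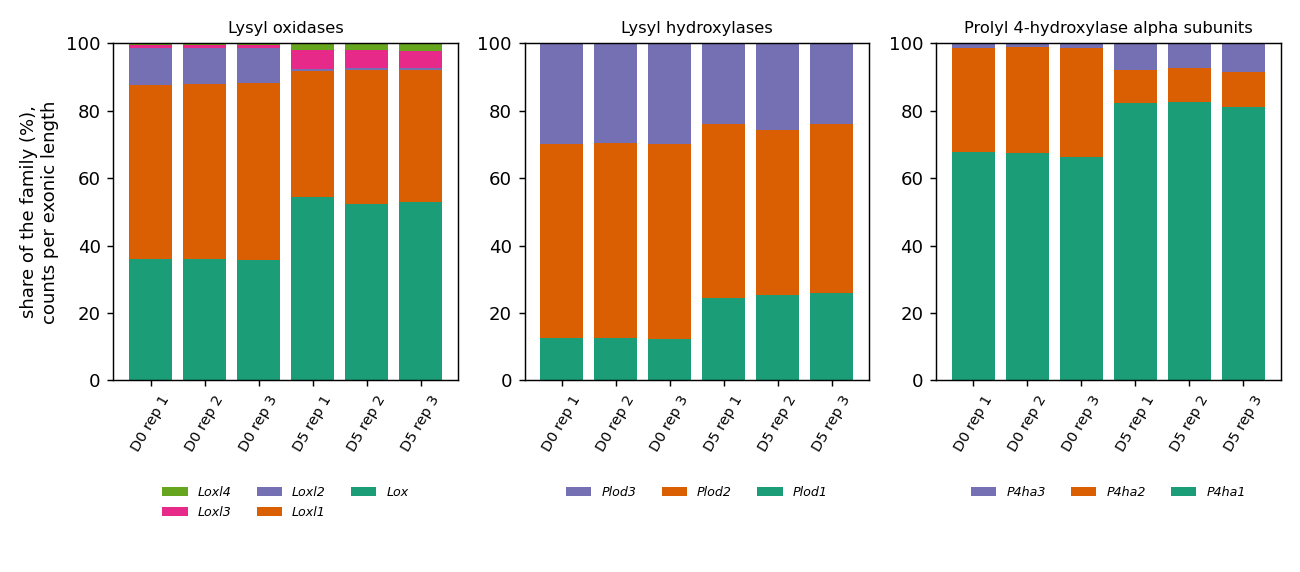
Share of each member in its family's counts per exonic length (percent, 0 to 100), stacked, with 1 bar for each library, for the lysyl oxidases, the lysyl hydroxylases and the prolyl 4-hydroxylase alpha subunits. The bars of a group are alike, and between D0 and D5 *Lox*, *Plod1* and *P4ha1* take larger shares while *Loxl2* goes from 10.6% to 0.461%.

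The levels were also summed over each family. The 5 lysyl oxidases together had 643 ± 23.1 TPM at D0 and 568 ± 27.9 TPM at D5 (SD, n = 3 each). The 3 lysyl hydroxylases together had 287 ± 7.08 and 168 ± 7.24 TPM, and the 3 alpha subunits 140 ± 3.26 and 158 ± 7.81 TPM (SD, n = 3 each). In TPM the groups did not overlap in any of the 3 sums (two-sided exact permutation p = 0.1, the smallest possible), beside 83.3% of all genes tested in CPM. In CPM the lysyl oxidases overlapped, at 756 ± 17.7 at D0 and 766 ± 29.5 at D5, so their lower sum holds in TPM only. The lysyl hydroxylases (439.6 ± 6.96 and 299 ± 8.02 CPM) and the alpha subunits (194 ± 2.97 and 217 ± 6.84 CPM) kept their direction without overlap (SD, n = 3 each). These sums share the scaling limit given above, and that of the lysyl oxidases also holds the uncertain level of *Loxl2*.

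The enzymes were also counted relative to the fibrillar collagens of the same library. The 6 fibrillar chains *Col1a1*, *Col1a2*, *Col3a1*, *Col5a1*, *Col5a2* and *Col5a3* together had 2028, 2082 and 2022 CPM at D0 and 6314, 6210 and 6380 CPM at D5, which is 3.08-fold more. Their make-up also differed, with *Col3a1* at 26.7% ± 0.182 of these counts at D0 and 59.1% ± 0.888 at D5 (SD, n = 3 each). Per 1000 of these collagen counts, *Plod2* had 126 ± 0.774 counts at D0 and 23.2 ± 0.948 at D5, *P4ha2* 39.1 ± 0.953 and 5.16 ± 0.0714, and *Loxl2* 52.3 ± 1.66 and 0.723 ± 0.103 (SD, n = 3 each). Also *Lox* (156 ± 5.62 and 73.8 ± 2.87), *P4ha1* (54.8 ± 0.597 and 27.3 ± 1.31) and *Plod1* (34.2 ± 0.567 and 14.7 ± 0.363), which were higher in CPM with TMM, were lower per collagen count (SD, n = 3 each). *Loxl3* went from 4.22 ± 0.236 to 7.28 ± 0.184 and *Loxl4* from 1.65 ± 0.132 to 2.50 ± 0.187 (SD, n = 3 each), the 2 members that were higher. The 8 members that were lower lie near the background of a denominator that rose, since 84.6% of all genes tested were lower and 10.9% higher per collagen count in every D5 library. In log2 terms the difference ranged from -6.18 (*Loxl2*) to 0.79 (*Loxl3*), with p = 0.1 for each member in the two-sided exact permutation test. Against *Col1a1* and *Col1a2* alone, which took 4.21% ± 0.0266 of the chains' counts at D0 and 17.3% ± 0.519 at D5 (SD, n = 3 each), all 10 members were lower, *Loxl3* by -1.25 and *Loxl4* by -1.44 on the log2 scale, as were 92.7% of all genes tested, with 5.10% higher.

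**Figure D4:**
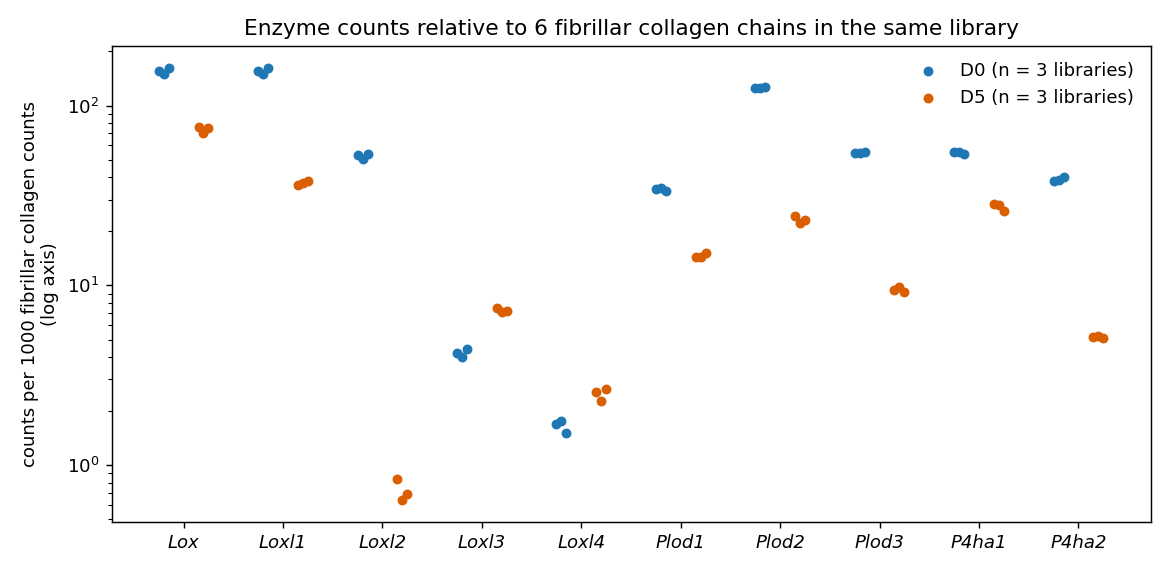
Counts of each enzyme per 1000 counts of 6 fibrillar collagen chains in the same library (log axis), with 1 point for each of the 3 D0 (blue) and 3 D5 (orange) libraries. Of the 10 enzymes 8 are lower at D5, beside 84.6% of all genes tested, and *Loxl3* and *Loxl4* are higher, and no groups overlap.

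Of 9 substrate genes 5 rose, 3 fell and *Col5a1* did not pass the test (log2 fold change 0.03, adjusted p = 0.344), with a list median of 0.15, whereas without scaling 4 were higher and 5 lower. Of all genes tested 42.2% were higher and 40.8% lower. *Col1a2* (chain of collagen I) went from 68.7 ± 0.846 to 891 ± 25.9 CPM, and *Col1a1* from 17.4 ± 0.0883 to 198 ± 9.54 CPM (SD, n = 3 each). The log2 fold changes were 3.70 and 3.51. Elastin (*Eln*) was also called higher, but on few reads, with 2, 0 and 1 counts at D0 and 13, 19 and 16 at D5. The basement membrane chains fell, *Col4a2* from 661 ± 9.82 to 185 ± 2.24 CPM (log2 fold change -1.84) and *Col4a1* from 770 ± 26.2 to 271 ± 0.467 CPM (log2 fold change -1.51), and so did the minor fibrillar chain *Col5a3* (-0.78).

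The 29 partner genes act beside the enzymes as subunits, chaperones, procollagen proteinases and extracellular partners. Of these 26 were tested, and 12 rose, 13 fell and 1 (*P3h2*) did not pass, with a median log2 fold change of 0.11, and without scaling 9 were higher and 14 lower. This is again close to all genes, of which 42.2% were higher and 40.8% lower. *P4hb*, the beta subunit that the alpha subunits share, went from 592 ± 9.18 to 481 ± 4.20 CPM (SD, n = 3 each), with a log2 change of -0.30 (edgeR adjusted p = 3.8e-10). Per length, the 3 alpha subunits together were 19.6% ± 0.0779 of the *P4hb* level at D0 and 30.3% ± 0.994 at D5 (SD, n = 3 each). The groups did not overlap, beside 83.3% of all genes tested in CPM. Within this, *P4ha1* was at 13.2% ± 0.199 and 24.8% ± 0.968, and *P4ha2* at 6.18% ± 0.124 and 3.10% ± 0.0386 (SD, n = 3 each).

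*Serpinh1*, the collagen chaperone HSP47, went from 920 ± 31.4 to 418 ± 18.7 CPM (SD, n = 3 each), with a log2 change of -1.14. *Fkbp10*, a chaperone that PLOD2 needs for telopeptide lysines, went from 141 ± 2.58 to 83.8 ± 3.11 CPM (SD, n = 3 each), with a log2 change of -0.75. *Tmem38b* and *Fkbp14*, listed with these genes, rose with TMM, by log2 changes of 3.42 and 0.60. The rise of *Fkbp14* is near the size of the shift of -0.58 in the median of all genes with spike-in scaling. The partners that fell most were *Postn* (periostin, -4.08 from 1903 to 113 CPM), *Pcolce2* (an enhancer of procollagen C-proteinase, -2.59) and *Bmp1* (that proteinase, which also cleaves the LOX propeptide, -1.45 from 384 to 141 CPM). In the other direction, *Fbln5* (fibulin-5, an elastic fiber protein that binds lysyl oxidases) went from 0.631 ± 0.0906 to 91.4 ± 1.69 CPM (SD, n = 3 each), with a log2 change of 7.16. *Tll1*, a proteinase related to BMP1, went from 6, 6 and 8 counts to 81, 79 and 103 counts (log2 fold change 4.37). *Fmod*, fibromodulin, a small proteoglycan that binds collagen and LOX, had 0 counts in each D0 library and 115, 88 and 109 at D5. Against a floor of 3 counts per D0 library it was at least 55.5-fold higher.

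**Figure D5:**
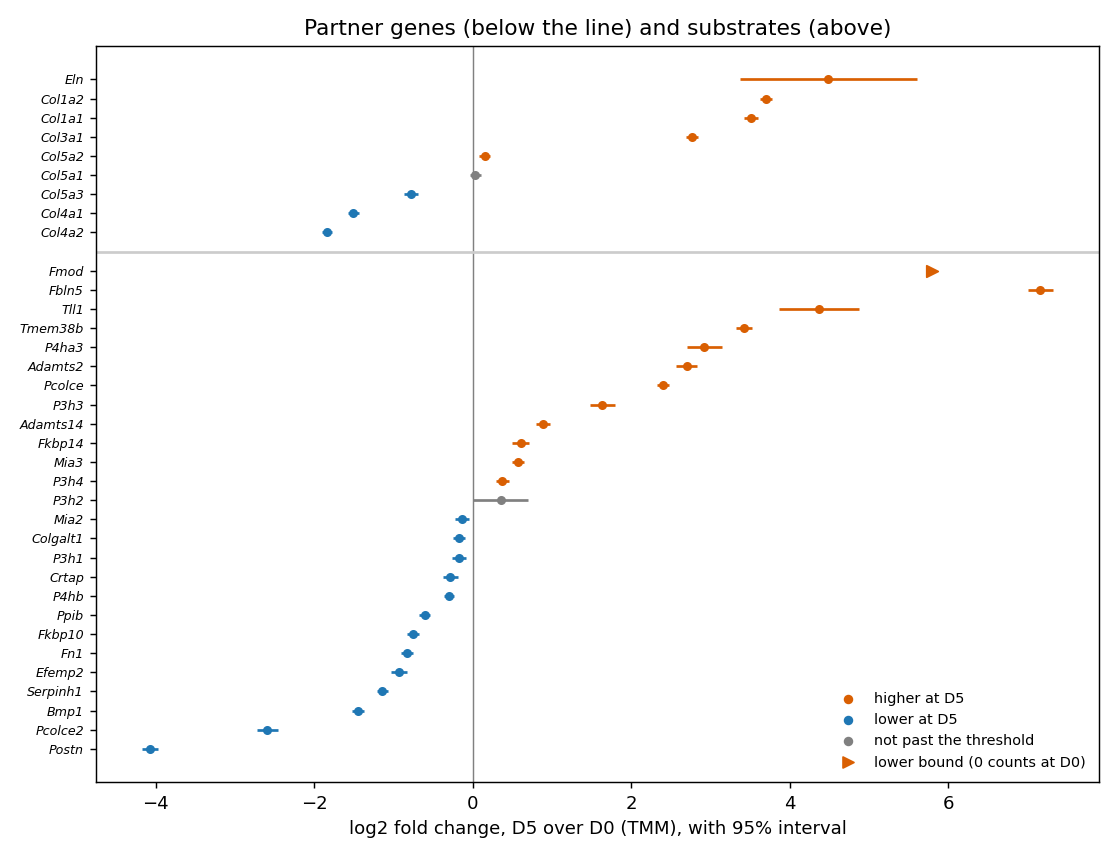
Log2 fold change (D5 over D0, TMM) with 95% intervals of the 26 tested partner genes (below the line) and the 9 substrates (above), orange where higher at D5, blue where lower and grey where the adjusted p did not pass 0.05. Both lists hold genes on either side of 0, from -4.08 (*Postn*) to 7.16 (*Fbln5*), and *Fmod*, with 0 counts at D0, is drawn at its lower bound.

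Of 12 HIF targets outside the collagen enzymes 5 rose, 5 fell and 2 (*Ldha* and *Ankrd37*) did not pass the test, with a median log2 fold change of -0.11, and without scaling 4 were higher and 7 lower. These counts are close to the 42.2% higher and 40.8% lower of all genes. The rises were led by *Car9* (carbonic anhydrase 9), with 4, 2 and 7 counts at D0 and 126, 133 and 145 at D5, and by *Egln3*, a HIF prolyl hydroxylase, from 6.92 ± 0.293 to 136 ± 2.46 CPM (SD, n = 3 each). *Adm* (adrenomedullin) had 2, 1 and 2 counts at D0 and 39, 36 and 32 at D5. The falls were led by *Ndrg1* (-1.85), the glucose transporter gene *Slc2a1* (-1.65) and the glycolytic gene *Pgk1* (-0.70). Of the HIF subunits *Hif1a* fell (log2 fold change -0.70, from 222 ± 3.09 to 137 ± 4.44 CPM), while *Arnt* (0.40) and *Epas1* (2.16, from 0.442 to 1.99 CPM) rose. All of these log2 fold changes are with TMM. The rise of *Arnt* is smaller than the shift of -0.58 that the median of all genes shows with spike-in scaling.

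The genes with profiles most like those of the members that moved furthest were found by the root mean square difference of centred log2 CPM over the 6 libraries. For *Loxl3* these were *Sema3e* (0.0318), *Pcolce* (0.0354) and *Susd6* (0.0378), and *Pcolce*, a partner gene that enhances procollagen C-proteinase, went from 54.1 ± 0.928 to 286 ± 9.35 CPM (SD, n = 3 each). For *Loxl2* they were *Fanci* (0.0689), *Zwilch* (0.0698) and *Cdca2* (0.0792), with log2 fold changes of -4.74, -4.50 and -4.49. With 3 libraries a group, such a likeness rests mainly on the size of the difference between D0 and D5.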

How the data were processed

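RNA-seq of 3 D0 and 3 D5 cultures of C2C12 cells was analysed. The authors deposited raw read counts per gene, 1 file per library, counted with featureCounts on GRCm38 and not normalized. The paper's methods name HISAT2 and FastQC and the labels name Tophat2 and NGS-QC-Toolkit, and the annotation release, strand setting and handling of multiply mapped reads are not given in the sources used here. The submitters' processing notes also name DESeq2 1.6.3. Excluded from library sizes and tests were 92 spike-in rows and 1 row without a name, which equalled the column total. TMM factors, CPM and the quasi-likelihood test were computed from the deposited counts with edgeR 4.0.16 in R 4.3.3 after filterByExpr. TPM used exonic lengths of GENCODE M21, in which 99.9% of gene rows had a match. At most 3 counts per library were taken as undetected, a limit that covers counting error only. Replicates differed by more than sampling noise (chi-square per degree of freedom 2.28 to 3.71), so each counted as 1 sample. Alternatives were DESeq2 1.42.0, upper-quartile factors, total counts, no scaling, ERCC scaling, other filters, each library left out and a replicate block. On simulated data, 198 of 15936 genes changed 2-fold, of which 91.4% were recovered, and 6.22% of calls were false. The simulation left most genes unchanged, while 82.9% of genes tested were called in the data, so its rates may not hold here. Genes named were the 10 members, *P4ha3*, *P4hb*, *Serpinh1*, *Fkbp10*, *Fkbp14*, *Tmem38b*, up to 3 genes with the largest change past the threshold per list and direction, and the 3 nearest profiles. The members and lists were chosen with earlier results of these data known.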

Additional observations from a re-analysis of the deposited data

How the results depend on the processing

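Of 413 alternative values, 378 kept their direction and call or stayed within the limit set for a count or value, and in 12 of 14 alternatives all 10 enzymes were called as with TMM. With ERCC scaling 5560 genes were called in all, 2 enzymes were higher, 7 partners were higher and 7 lower, 3 HIF targets were higher and 3 lower. *Lox* was then at -0.042, *Plod1* at -0.18, and *Loxl1* (-1.02) and *P4ha1* (0.063) did not pass the threshold. Without scaling 2 enzymes were higher and 7 lower, among them *Lox* (-0.13) and *Plod1* (-0.28), 5 substrates were lower, and *P4ha1* was at -0.066 and not past the threshold. Under the filter of 10 counts per library 3 HIF targets were higher, since fewer genes were tested. By shares of summed counts the difference in percentage points was 18.6 for *Lox*, -11.5 for *Loxl1*, -13.5 for *Loxl2*, 4.85 for *Loxl3*, 15.0 for *Plod1*, -9.67 for *Plod2*, 21.3 for *P4ha1*, -26.2 for *P4ha2* and 4.92 for *P4ha3*, since long genes then weigh more. Against *Col1a1* and *Col1a2* alone the log2 difference was -3.11 for *Lox*, -4.10 for *Loxl1*, -8.22 for *Loxl2*, -1.25 for *Loxl3*, -1.44 for *Loxl4*, -3.26 for *Plod1*, -4.48 for *Plod2*, -4.56 for *Plod3*, -3.04 for *P4ha1* and -4.96 for *P4ha2*, since these chains rose more than the sum of 6.

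Leaving out each library in turn changed no call of an enzyme, with *Loxl2* between -4.66 and -4.45 and *Loxl3* between 2.37 and 2.44. Replicates with the same number did not deviate together in every pair (correlations 0.0084, 0.13 and 0.062, and not every library correlated best with its own number). With the replicate number as a block 13558 genes were called, and *Lox* was at 0.55. Depth limits *Eln*, *Adm* and *Fmod*, which had at most 2 counts in any D0 library.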
